A study of Mus musculus with 6 samples.

Results

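Tripartite motif (TRIM) genes were examined in mouse CD4+ T cells cultured with idelalisib, a drug that blocks the delta form of phosphoinositide 3-kinase. The family was taken as every protein-coding gene of the deposited count table whose symbol is Trim followed by a number, which gave 68 of 54532 genes. Those on chromosome 7 that form an unbroken run around Trim30a, with less than 500 kb between neighbours, were separated as the Trim30 cluster. This gave 10 genes, Trim5, Trim6, Trim12a, Trim12c, Trim30a, Trim30b, Trim30c, Trim30d, Trim34a and Trim34b, in 289 kb (mm10 chromosome 7, 104218793 to 104507849). The other 58 members lie elsewhere. The cells were purified from the spleens of C57BL/6 mice and kept for 72 h under Th1-polarising conditions, in 3 control cultures without the drug and 3 cultures with it. The sources used here give no dose, control solvent or age of the mice. The labels call the 3 libraries of each group biological replicates without saying whether each is a separate mouse, and the p-values therefore cover only how far these cultures scatter, a spread that may be technical.

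TRIM proteins share an N-terminal RING finger, which recruits a ubiquitin-conjugating enzyme, followed by B-box zinc fingers and a coiled coil, and they differ in the C-terminal domain that binds the target. Many act as ubiquitin ligases. Several are themselves induced by interferons, and in lymphocytes and other cells they restrict viruses or tune the sensors and kinases that lead to interferon and NF-kappaB. The mouse Trim30 cluster is the counterpart of the human locus that holds TRIM5, the cytosolic factor that binds retroviral capsids, and has expanded by local duplication.

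The start regions of the cluster genes fall into related groups. They are shown first because 8 of the 10 genes of the cluster were higher with idelalisib. Whether the start regions bear on this was not tested. Windows of 300 bases, from 250 before to 50 after the start, were taken from RefSeq (build GRCm38.p6, the same assembly as mm10) and were found for 34 of the 43 members that were tested. The windows of Trim30a and Trim30d were identical at 276 of 295 aligned positions (93.6%), and that of Trim30c matched Trim30a at 166 of 199 (83.4%). Those of Trim5 and Trim12a were identical at all 241 aligned positions, and Trim12c matched Trim12a at 247 of 260 (95%). The 250 bases before the start of Trim30a (chr7:104465194-104465443, minus strand) and of Trim30d (chr7:104507850-104508099, minus strand) are printed 5′ to 3′, with the core of the interferon-stimulated response element (ISRE) in capitals as it reads on this strand.
Trim30a: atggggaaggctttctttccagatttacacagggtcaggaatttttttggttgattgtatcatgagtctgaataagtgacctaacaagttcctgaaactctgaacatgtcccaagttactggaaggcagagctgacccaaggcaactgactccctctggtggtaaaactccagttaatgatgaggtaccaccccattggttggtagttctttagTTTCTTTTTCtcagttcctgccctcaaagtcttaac
Trim30d: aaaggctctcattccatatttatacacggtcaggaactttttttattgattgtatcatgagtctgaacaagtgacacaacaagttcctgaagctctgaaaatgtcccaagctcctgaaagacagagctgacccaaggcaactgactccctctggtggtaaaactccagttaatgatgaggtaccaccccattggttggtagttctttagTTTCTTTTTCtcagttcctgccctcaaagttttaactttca

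The ISRE core was searched on both strands as GAAA, any 2 bases and GAAA again. It occurred in 3.44% of all 32851 RefSeq start windows of this length. Counted by gene, with a match at any of its starts, it occurred in 3.99% of 27025 genes. By the same count it occurred in the windows of 6 of the 9 tested cluster genes. These were Trim30a, Trim30d, Trim5, Trim12a, Trim12c and Trim34a. The windows of Trim6, Trim30b and Trim30c did not hold these letters. Outside the cluster it occurred in those of 3 of 25 tested genes, Trim21, Trim26 and Trim2, and in Trim21 and Trim26 a pair of matches overlapped by 4 bases. The matches are printed on the strand that reads as the core, with 10 bases on either side and the core in capitals, to show which members share more than the core. A match at another start of Trim30a and the overlapping second match in Trim21 and in Trim26 are left out.
Trim30a (chr7:104465210-104465239, plus strand): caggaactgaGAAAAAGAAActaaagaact
Trim30d (chr7:104507871-104507900, plus strand): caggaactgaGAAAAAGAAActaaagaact
Trim5 (chr7:104288136-104288165, plus strand): ctctggaaatGAAACAGAAAccacaactct
Trim12a (chr7:104315466-104315495, plus strand): ctctggaaatGAAACAGAAAccacaactct
Trim12c (chr7:104353359-104353388, plus strand): agctggaaatGAAACAGAAAccacaactct
Trim34a (chr7:104244457-104244486, minus strand): gcagagaaaaGAAACTGAAActccaaacca
Trim21 (chr7:102565444-102565473, minus strand): agaggaaactGAAAGTGAAAtttggactgc
Trim26 (chr17:36836976-36837005, minus strand): ccgagaaaagGAAAGTGAAAtcggaagcgg
Trim2 (chr3:84212791-84212820, plus strand): ctgtcttagaGAAAAGGAAAccaaagctga
The windows of Trim30a and Trim30d shown here are the same sequence, as are those of Trim5 and Trim12a, so the matches within each of these pairs are not separate observations. The Trim34a match differs from the others in the cluster in its core and flanks. The STAT dimer motif TTCNNNGAA, which reads the same on both strands, was in the start windows of 3 tested members, Trim30c, Trim45 and Trim46. It was in 8.30% of all windows and, counted by gene, in 9.55% of all genes with a window. The FOXO motif GTAAACA, searched because FOXO factors are restrained by phosphoinositide 3-kinase signalling, was in none of the windows of the tested members. It was in 3.65% of all windows and, counted by gene, in 4.05% of all genes with a window. A match in a start window does not show that a factor bound there.

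Libraries held 13372318 to 16770452 counts, and 43 of the 68 members had enough counts to be tested. Of the 25 others, 11 had no count in any library, and the other 14 had at most 34 counts in all 6 libraries together. T cell identity genes were high in both groups, with summed levels in CPM, counts scaled to library size, of 3168 to 3206 over the 8 genes listed in control and 2936 to 3183 in idelalisib libraries. The library of idelalisib replicate 2 was the outlying one of its group on principal component 2 (11.8% of the variance), and calls that change without it are named with their values.

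With idelalisib 8 of the 10 genes of the Trim30 cluster were higher, and none was lower. Calls are at an adjusted p under 0.05 in edgeR's quasi-likelihood test over all 14530 tested genes, of which 44.6% were called, 22.2% as higher and 22.4% as lower. Separate groups, with every idelalisib library above or below every control library, were found in 27.5% and 27.2% of all tested genes. All 8 rose by 1 or more in log2 terms, beside 5.77% of all tested genes. The median log2 fold change of the 9 tested cluster genes was 1.82, beside 0.01 for all tested genes. Trim30c passed the filter on low counts through its idelalisib libraries alone, so its presence among the tested genes depends on its being high there. Trim30b passed in 3 idelalisib libraries and in only 1 control library, so its presence depends on the idelalisib libraries as well. The rises ranged from 2.56-fold to 9.93-fold among the 6 called cluster genes with more than 20 control counts.

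**Figure D1:**
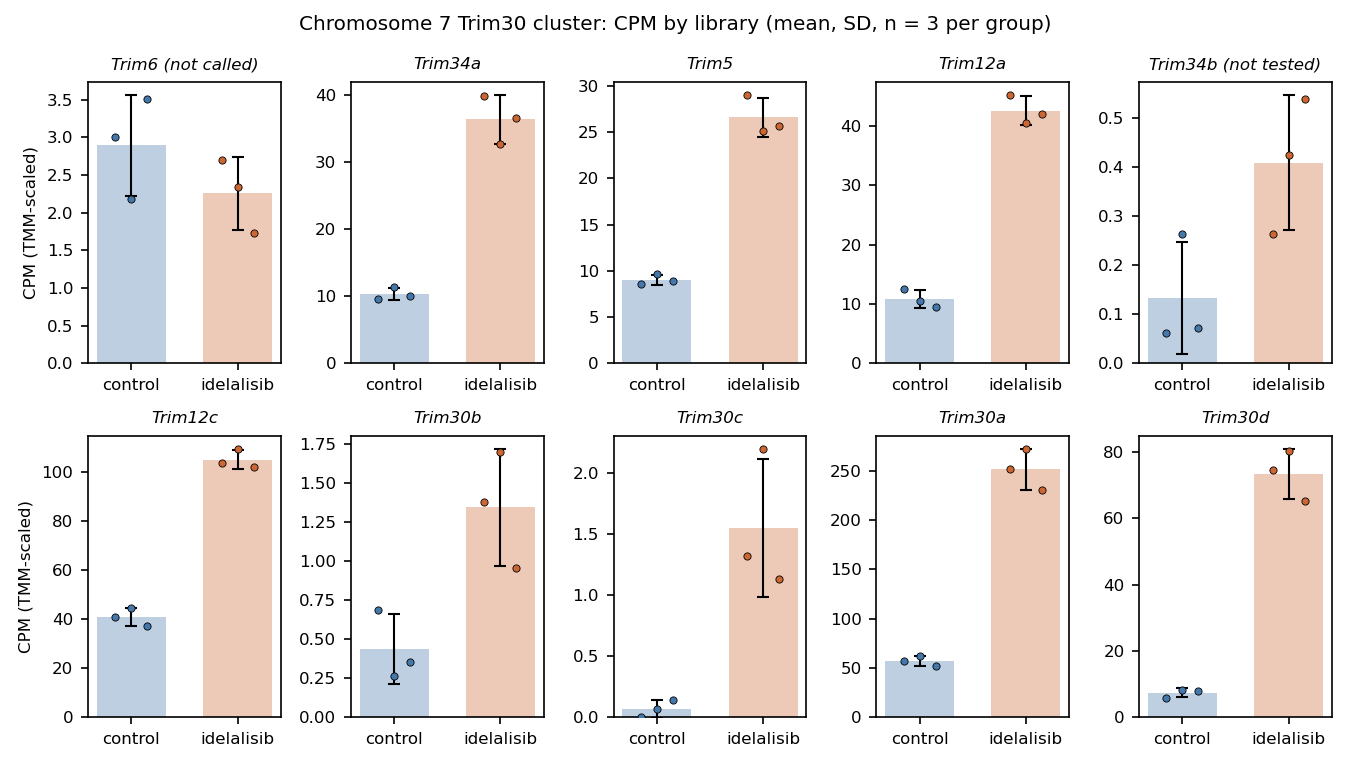
Level of each Trim30 cluster gene in every library, in TMM-scaled CPM on axes that start at 0, in the order of the genes along the chromosome. Points are libraries, bars are means and error bars are SD (n = 3 per group); in 8 of the 10 panels every idelalisib library lies above every control library, and Trim6 and Trim34b are the others.

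Trim30a, which curbs NF-kappaB signalling by promoting the loss of the kinase adaptors TAB2 and TAB3, was the cluster gene with the most reads. Trim30a (ENSMUSG00000030921, chromosome 7, 104409025 to 104465193, minus strand) measured 57.5, 62.6 and 52.5 CPM without the drug and 252, 272 and 231 CPM with it. Every idelalisib library lay far above every control library. Its log2 fold change came to 2.13 (SE 0.09; adjusted p = 3.94e-09 by edgeR), a 4.37-fold rise. Trim30d (ENSMUSG00000057596, 104470014 to 104507849), the neighbour that shares its start region, measured 5.82, 8.32 and 8.01 CPM without the drug and 74.4, 80.3 and 65.3 CPM with it. The groups did not overlap, and the rise of Trim30d was 9.93-fold (log2 difference 3.31, SE 0.14; adjusted p = 3.24e-09 by edgeR). Its 95% interval, 3.02 to 3.61, lay above that of Trim30a, 1.92 to 2.33; the difference between the genes was not tested. The transcripts of Trim30a and Trim30d have 5.98% and 7.49% of their 50-base words in other genes, mainly in each other.

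The remaining Trim30 copies were near the limit of detection. Trim30c (ENSMUSG00000078616, 104382065 to 104400837) had 0, 1 and 2 counts without the drug and 20, 31 and 19 with it. The ratio of its summed counts, scaled to library size, was 22.9 with an exact 95% counting interval of 7.51 to 113. Trim30b (ENSMUSG00000052749, 104355382 to 104369884) had 11, 4 and 5 counts without the drug and 21, 24 and 16 with it, a ratio of 2.99 with an interval of 1.78 to 5.23. Both genes were called, Trim30c at an adjusted p of 0.000156 and Trim30b at 0.0132 in edgeR, but the call of Trim30b was lost without control replicate 2 or 3 (adjusted p = 0.0629 and 0.0534).

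The Trim5 and Trim12 genes, the mouse relatives of the retroviral restriction factor, rose together. Trim12c (ENSMUSG00000057143, 104338754 to 104353362) measured 41.1, 44.8 and 37.3 CPM without the drug and 103.8, 109.5 and 102.0 CPM with it, which is 1.35 on the log2 scale (SE 0.09; adjusted p = 1.01e-07 by edgeR). Trim12a (ENSMUSG00000066258, 104299894 to 104315466) measured 12.5, 10.4 and 9.51 CPM without the drug and 45.2, 40.6 and 42.0 CPM with it, which is 1.97 on the log2 scale (SE 0.12; adjusted p = 5.19e-08 by edgeR). Trim5 (ENSMUSG00000060441, 104263386 to 104288094) measured 8.63, 9.64 and 8.86 CPM without the drug and 29.0, 25.1 and 25.6 CPM with it, which is 1.55 on the log2 scale (SE 0.13; adjusted p = 5.84e-07 by edgeR). In each of these genes the lowest idelalisib library was above the highest control library. Trim5 has 36.3% of its 50-base words in other genes, mainly Trim12c, and Trim12c has 33.0%, mainly in Trim5, so the division of reads between this pair is uncertain, while Trim12a shares 10.4%.

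Trim34a and Trim6 lie at one end of the cluster and differed in their response. Trim34a (ENSMUSG00000056144, 104244457 to 104262234, plus strand) measured 9.57, 11.4 and 10.01 CPM without the drug and 39.9, 32.6 and 36.6 CPM with it. The groups did not overlap, at 1.82 on the log2 scale (SE 0.12; adjusted p = 1.18e-07 by edgeR). Its exons overlap the antisense gene Gm47248 over 23.5% of their length, and Gm47248 had no count in any library. Trim34b (ENSMUSG00000090215), a copy with 56.8% of its words in Trim34a, had 1, 4 and 1 counts without the drug and 4, 6 and 9 with it and was not tested. Trim34a in turn has 39.8% of its words in Trim34b, so the division of reads between this pair is uncertain too. Trim6 (ENSMUSG00000072244, 104218793 to 104235152), which makes unanchored ubiquitin chains in the interferon pathway, measured 3.00, 2.18 and 3.50 CPM without the drug and 2.70, 2.34 and 1.73 CPM with it. These values overlap. The log2 fold change of Trim6 was -0.36 (95% interval -0.97 to 0.25, edgeR adjusted p = 0.320), so a rise of the size seen in the called cluster genes lies outside its interval.

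**Figure D2:**
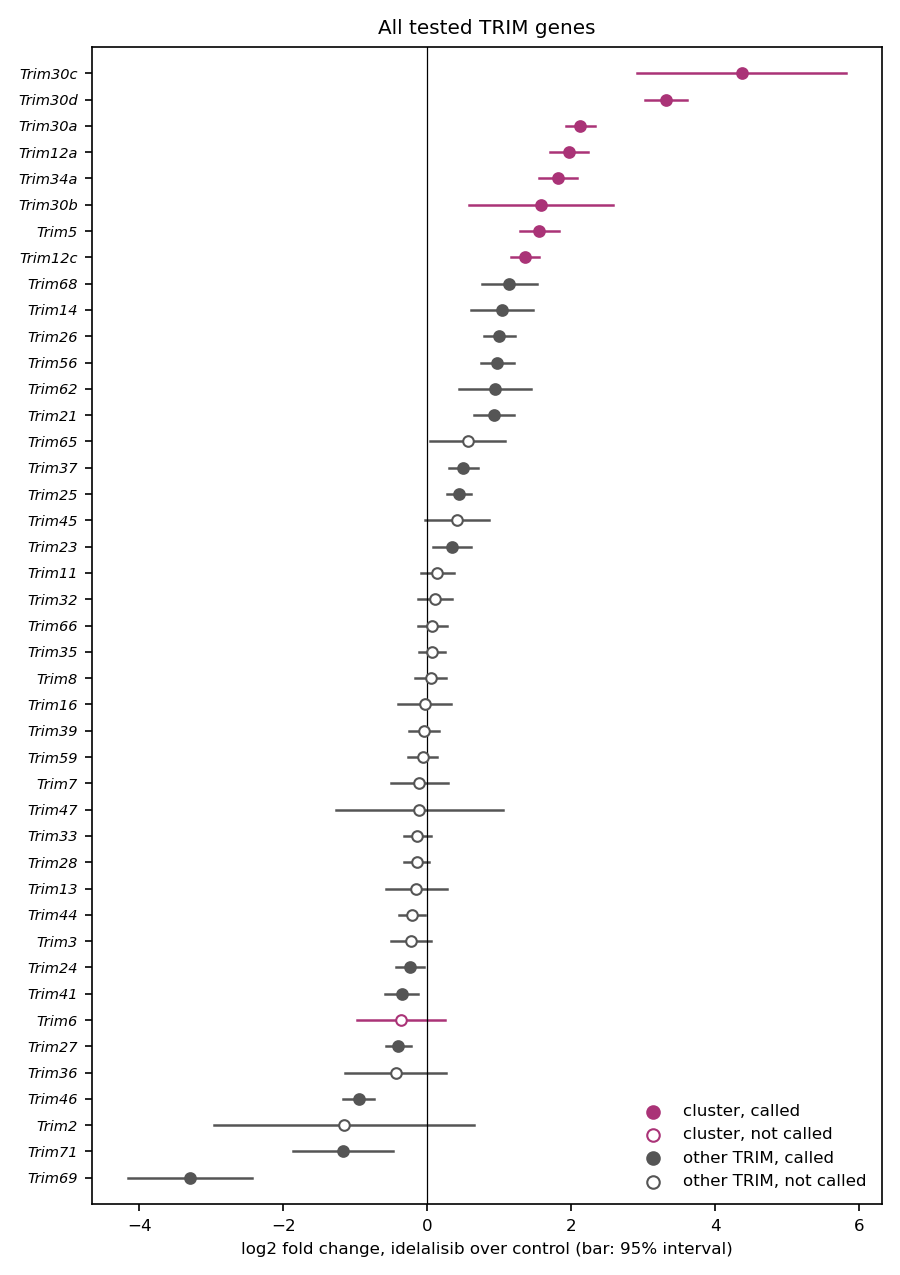
Log2 fold change of each of the 43 tested TRIM genes, idelalisib over control, with its 95% interval from the edgeR fit; filled points passed an adjusted p of 0.05. The 8 called cluster genes fill the top of the order, from 1.35 in Trim12c to 4.37 in Trim30c, and Trim69 stands lowest at -3.29.

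Over the whole family 17 members were higher and 6 were lower with idelalisib, 39.5% and 14.0% of the 43 tested. Outside the cluster 9 of 34 tested members were higher and 6 lower, or 26.5% and 17.6%. These shares lie close to the 22.2% and 22.4% of all genes, so the count outside the cluster is not a result about these members. Their median log2 fold change was -0.04. Scaled by library size alone, the all-gene median moved from 0.01 to 0.16 (log2) and the family count to 21 higher and 4 lower; 68.5% of all calls were then on the higher side against 49.7%.

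Compared per length, in RPKM (CPM divided by gene length in kb), Trim28 had the highest level in both groups. Summed over the cluster, the level was 36.0 ± 2.65 RPKM in control and 139.2 ± 7.72 RPKM in idelalisib libraries (SD, n = 3). Summed over the other members it was 377.2 ± 6.02 and 373.1 ± 7.65 RPKM, and the groups overlapped. As a share of counts, not scaled by length, the cluster held 7.07 ± 0.487% of all reads on TRIM genes in control and 22.4 ± 1.04% in idelalisib libraries. In the order of levels among the 43 tested genes Trim30a moved from place 10 to place 2, and Trim30d from place 29 to place 8. Because the libraries are from bulk cultures, more cells expressing a gene and more RNA per cell cannot be told apart, here and in the values that follow.

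**Figure D3:**
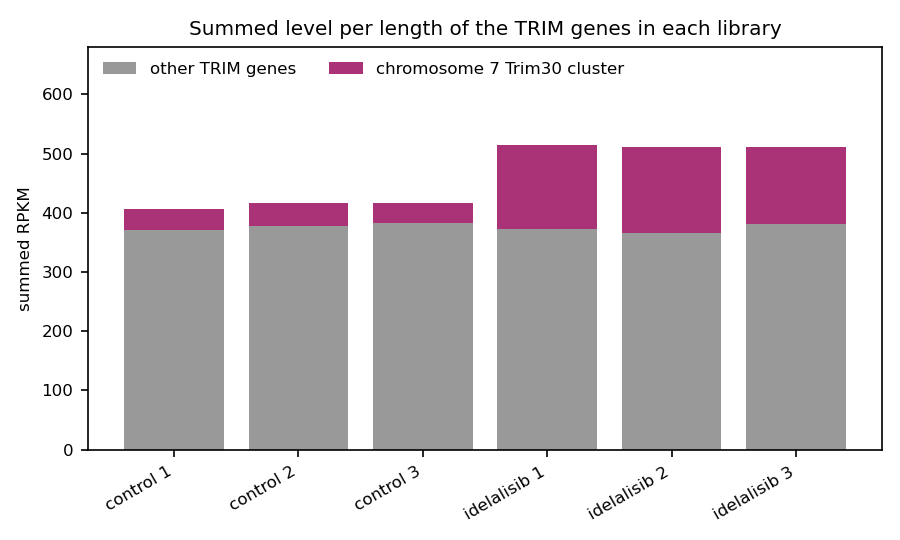
Summed level per length (RPKM) of the TRIM genes in each library, split into the Trim30 cluster and the other members. The cluster part lies between 33.7 and 38.9 RPKM in control and between 131 and 145 RPKM in idelalisib libraries, while the other part stays between 366 and 383 RPKM in all 6 libraries.

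Outside the cluster the members with the largest rises included genes of antiviral signalling. Trim68 and Trim21 lie on chromosome 7 as well, at -1777.9 and -1899.7 kb from the start of Trim30a. Trim21 (ENSMUSG00000030966, 102557921 to 102565486), the cytosolic antibody receptor that sends antibody-coated viruses to the proteasome, measured 12.6, 17.1 and 14.8 CPM without the drug and 28.0, 26.9 and 29.98 CPM with it. Its log2 fold change came to 0.93 (SE 0.13; adjusted p = 6.12e-05 by edgeR). Trim68 (ENSMUSG00000073968, 102677582 to 102687327) measured 7.38, 7.40 and 6.36 CPM without the drug and 16.7, 11.8 and 18.1 CPM with it, which is 1.14 on the log2 scale (SE 0.18; adjusted p = 0.000146 by edgeR). In both genes all idelalisib libraries exceeded all control libraries, and in Trim68 idelalisib replicate 2 was the lowest of its group.

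Trim56 and Trim26, which act on the induction of interferon, rose by similar amounts. Trim56 (ENSMUSG00000043279, chromosome 5, 137105644 to 137116209) measured 67.9, 76.6 and 72.0 CPM without the drug and 151.8, 155.9 and 117.0 CPM with it, which is 0.97 on the log2 scale (SE 0.11; adjusted p = 8.73e-06 by edgeR). Trim26 (ENSMUSG00000024457, chromosome 17, 36837134 to 36859398), a gene of the major histocompatibility complex region, measured 40.9, 41.3 and 33.2 CPM without the drug and 80.7, 71.3 and 79.4 CPM with it, which is 1.00 on the log2 scale (SE 0.10; adjusted p = 4.16e-06 by edgeR). Neither gene overlapped between groups. Trim25 (ENSMUSG00000000275, chromosome 11, 88999376 to 89020293), the ligase known for ubiquitinating the RNA sensor RIG-I, was more abundant and rose less. It measured 111.4, 113.4 and 106.7 CPM without the drug and 156.0, 149.97 and 143.9 CPM with it, which is 0.44 on the log2 scale (SE 0.08; adjusted p = 0.000444 by edgeR).

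Trim14, an adaptor of the mitochondrial antiviral signalling protein that lacks a RING, measured 7.57, 10.97 and 6.58 CPM without the drug and 17.8, 13.2 and 20.5 CPM with it (log2 difference 1.04, SE 0.20; adjusted p = 0.00102 by edgeR). The exons of Trim14 (chromosome 4, 46493781 to 46536141) overlap genes on the opposite strand over 38.0% of their length. One of them, Nans, was at 174.2 ± 12.6 and 119.3 ± 13.3 CPM (log2 fold change -0.55), a change in the other direction. Trim62, on chromosome 4 as well, measured 2.32, 2.84 and 3.65 CPM without the drug and 4.94, 5.45 and 6.45 CPM with it (log2 difference 0.94, SE 0.23; adjusted p = 0.00454 by edgeR). Trim37, a ligase of centrosomes and peroxisomes, measured 35.9, 37.9 and 42.2 CPM without the drug and 59.0, 51.8 and 53.4 CPM with it (log2 difference 0.50, SE 0.10; adjusted p = 0.000812 by edgeR). The libraries of both groups were separate in all 3 genes. Trim23, which carries an ARF-type GTPase domain, had a log2 fold change of 0.34 with overlapping groups, and its edgeR call (adjusted p = 0.0372) was lost in 7 of the 15 alternatives, with adjusted p up to 0.142, among them the fit without idelalisib replicate 2 (log2 fold change 0.23).

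**Figure D4:**
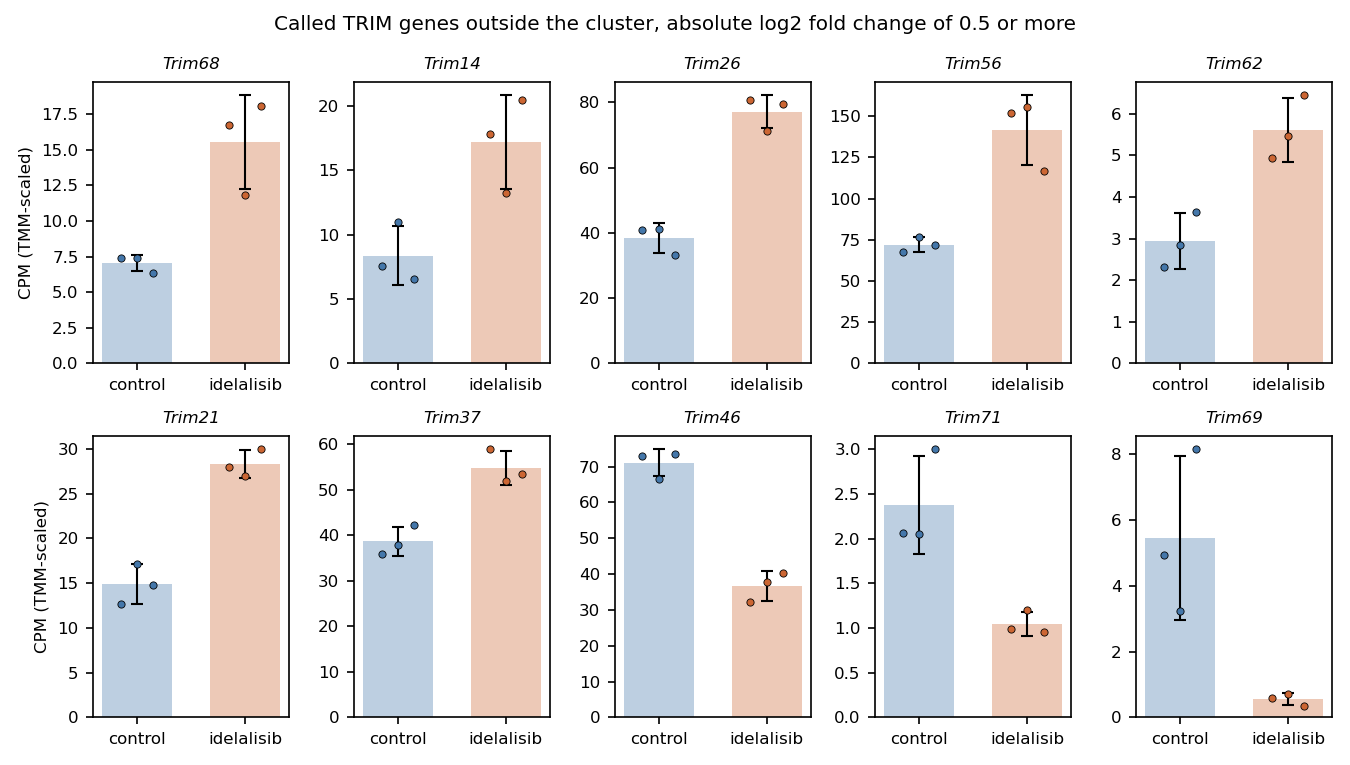
Level in every library of the 10 called TRIM genes outside the cluster with a log2 change of 0.5 or more in size, in TMM-scaled CPM on axes that start at 0. Points are libraries, bars are means and error bars are SD (n = 3 per group); 7 genes are higher and Trim46, Trim71 and Trim69 are lower in every idelalisib library.

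Of the 6 members that fell, 3 (Trim69, Trim41 and Trim27) were put in the same PRY-SPRY class as the cluster genes. Trim46 was classed by COS, FN3 and SPRY domains together. Trim69 (ENSMUSG00000033368, chromosome 2, 122160700 to 122179027), a microtubule-associated ligase, had the largest fall. It measured 4.94, 3.24 and 8.15 CPM without the drug and 0.592, 0.708 and 0.358 CPM with it, from 49 to 114 counts down to 6 to 10. Its log2 fold change came to -3.29 (SE 0.40; adjusted p = 2.03e-05 by edgeR). The control libraries of Trim69 were uneven, and the lowest of them was still above the highest idelalisib library. Trim69 passed the filter on low counts in 3 control libraries and 1 idelalisib library, so its presence among the tested genes depends on its control level.

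Trim46, which organises parallel microtubule bundles in the axons of neurons, was the lowered member with the most reads among those that changed by at least 0.5 on the log2 scale. Trim46 (ENSMUSG00000042766, chromosome 3, 89234177 to 89246309) measured 73.0, 66.6 and 73.6 CPM without the drug and 32.1, 37.8 and 40.2 CPM with it. The groups were clearly apart, at -0.95 on the log2 scale (SE 0.10; adjusted p = 5.40e-06 by edgeR). Its exons overlap Krtcap2 on the opposite strand over 6.30% of their length, and Krtcap2 was not called (log2 fold change -0.15). Trim71, the stem cell gene first described as lin-41, had 33, 31 and 42 counts without the drug and 15, 17 and 16 with it (log2 difference -1.17, SE 0.32; adjusted p = 0.00937 by edgeR). Without control replicate 3 the call of Trim71 was lost (adjusted p = 0.0592).

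Smaller falls were found in Trim27, a nuclear ligase first found fused to the RET kinase, Trim41 and Trim24. Trim27 measured 128.6, 139.7 and 138.5 CPM without the drug and 98.9, 100.1 and 108.6 CPM with it (log2 fold change -0.40, edgeR adjusted p = 0.00115). Trim41 and Trim24 were lower by smaller amounts, at -0.35 and -0.24 on the log2 scale (adjusted p = 0.0143 and 0.0431 by edgeR). Scaled by library size alone the calls of Trim41 and Trim24 were lost (adjusted p = 0.130 and 0.456), and that of Trim24 was lost in 7 of the 15 alternatives. The exons of Trim41 overlap those of the abundant gene Rack1 over 0.883% of their length on the opposite strand, and Rack1 was lower as well (log2 fold change -0.48).

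The chromatin-binding members changed little. Trim28, the corepressor that KRAB zinc finger proteins recruit to silence transposable elements, measured 426, 432 and 454 CPM without the drug and 361, 397 and 426 CPM with it. The highest idelalisib library reached the lowest control library, and its log2 fold change of -0.15 (95% interval -0.32 to 0.03) was not called (adjusted p = 0.158 by edgeR), though it was called without idelalisib replicate 3. Trim33, a partner of SMAD4, and Trim24, a reader of histone modifications, had log2 fold changes of -0.14 and -0.24. For a count by C-terminal domain, each member was put in 1 class. In the PRY-SPRY class 13 of the 23 tested members were higher and 3 lower, beside 22.2% and 22.4% of all tested genes. Members classed by COS, FN3 and SPRY domains together, and those classed as lacking a RING, are not in it. The class therefore need not hold every member with an SPRY domain. Without the 9 cluster genes, which were all put in this class, it was 5 higher and 3 lower of 14. The classes were not checked against protein sequences, so a member may have been put in a class whose domain it lacks. Of the 4 tested members with an NHL domain (Trim2, Trim3, Trim32 and Trim71) 1 was lower. In the class with COS, FN3 and SPRY domains (Trim36 and Trim46) 1 of 2 was lower. None of these members was higher, and the numbers are too small to set against the 22.4% of all genes.

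Another 20 tested members did not pass, with log2 fold changes from -1.16 in Trim2 to 0.56 in Trim65. For the 11 of them that averaged at least 10 CPM the 95% intervals lay within -0.50 and 0.37. Trim2 measured 6.19, 4.23 and 10.6 CPM without the drug and 1.71, 6.58 and 1.25 CPM with it. Idelalisib replicate 2 alone was in the control range, and without it Trim2 was called (log2 fold change -2.23, adjusted p = 0.000296). Trim36 showed the same layout, at 3.00, 2.97 and 3.65 CPM in control and 2.04, 3.75 and 1.37 CPM in idelalisib libraries, and without that library its log2 fold change was -0.90 (adjusted p = 0.0213). Without that library Trim45, Trim11 and Trim44 were called as well, at 0.60, 0.25 and -0.26 on the log2 scale (adjusted p = 0.0110, 0.0380 and 0.0123 by edgeR).

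TRIM genes under other names were not part of the family as defined and are given beside it. Pml, the TRIM19 gene that organises nuclear bodies (ENSMUSG00000036986, chromosome 9), measured 166.8, 179.5 and 153.6 CPM without the drug and 392.9, 392.3 and 424.0 CPM with it, which is 1.27 on the log2 scale (SE 0.08; adjusted p = 8.20e-08 by edgeR). Mid2, a microtubule-binding TRIM protein on the X chromosome, fell by 0.78 on the log2 scale (edgeR adjusted p = 0.00434). Mid1 and Cmya5 were not called, and Mefv was not tested.

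Genes that work with TRIM proteins moved in both directions, and the counts that follow stand beside 22.2% higher and 22.4% lower among all tested genes. Of 23 tested genes for innate sensors and their signalling partners, 9 were higher and 5 lower, with a median log2 fold change of 0.14. The largest rises were in the transcription factor Irf7, the RNA sensor Ifih1 and Rnf135, the RIG-I ligase also called Riplet, at 3.07, 2.11 and 1.09 on the log2 scale. Ddx58, which encodes RIG-I, rose by 0.81 (edgeR adjusted p = 1.54e-05), and Tab1 was among the 5 lower genes at -0.43, while Tab2 and Tab3, the adaptors that Trim30a acts on, were at -0.15 and -0.13, neither of them called. Of 19 partners of Trim28 in silencing, 7 were higher and none lower, led by the heterochromatin protein gene Cbx5 at 0.74 and by Uhrf1 and Morc2a at 0.63 and 0.61. The exons of Morc2a overlap the antisense RNA Tug1 over 7.52% of their length, and Tug1 was higher too. The histone methyltransferase gene Setdb1 was at 127 ± 14.8 and 102 ± 19.8 CPM and was not called (edgeR adjusted p = 0.0564). Of 18 ubiquitin and conjugating enzyme genes 6 were higher and 2 lower. Ube2l6, which encodes a conjugating enzyme for the ubiquitin-like protein ISG15, rose from 5.24 ± 1.02 to 15.3 ± 2.98 CPM (log2 fold change 1.55, edgeR adjusted p = 2.38e-05). Ube2v2 rose by 0.86 and Ube2v1 fell by 0.85 on the log2 scale, though 58.0% of the words of Ube2v1 occur in other genes.

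A reference list of 15 type I interferon response genes had all of its members higher (median 2.18 in log2 terms). This rise was known when the list was chosen and is not independent support. Of its 3 genes with the largest change, Xaf1 went from 1.04 ± 0.592 to 22.7 ± 0.461 CPM and Mx1 from 0.182 ± 0.113 to 12.5 ± 2.51 CPM. Ifi44 had 1, 1 and 0 counts without the drug and 68, 149 and 77 with it. Mx1, with 1, 3 and 4 control counts, and Ifi44 passed the filter on low counts through their idelalisib libraries alone. That these 2 genes were tested thus depends on their being high there. Among T cell identity genes Lck was lower (-0.40 on the log2 scale) and Cd3g and Cd3e were higher (0.35 and 0.25). The 5 others were not called. One of them, Cd4, was at 554 ± 38.1 and 474 ± 53.1 CPM (log2 fold change -0.23, edgeR adjusted p = 0.0614). Its lowest control library, at 510.0 CPM, was just above its highest idelalisib library, at 509.6 CPM. Among genes of other cell types, 5 of 8 tested B cell markers were higher, led by Bank1, Cd79b and Cd79a at 1.46, 1.42 and 1.31 on the log2 scale, and the summed level of the 10 listed was 65.9 to 68.4 CPM in control and 76.8 to 87.2 CPM in idelalisib libraries. The macrophage and monocyte markers summed to 17.0 to 18.1 and 15.4 to 17.6 CPM, and 2 of the 8 listed were tested. Mpeg1 rose from 0.322 ± 0.246 to 4.57 ± 2.54 CPM (3.75 on the log2 scale) and Cd68 fell from 16.7 ± 0.438 to 10.5 ± 2.23 CPM. Mpeg1 had 9, 5 and 1 counts without the drug and passed the filter on low counts through its idelalisib libraries alone. Its being tested thus depends on its being high there. Of the 6 others, all too low to be tested, Lyz2 had 3, 2 and 1 counts without the drug and 9, 12 and 7 with it, groups that do not overlap, while Csf1r, Adgre1, Itgam, Cd14 and Fcgr1 overlapped between groups. The dendritic cell list summed to 74.8 to 80.7 and 90.6 to 112 CPM, mostly from Bst2, which interferons also induce. Zbtb46 and Flt3, at -0.48 and 0.66 on the log2 scale, were not called. Of those too low to be tested, Itgax had 2, 7 and 2 counts without the drug and 1, 1 and 2 with it. Its scaled levels did not overlap, those of Xcr1 and Clec9a did, and Siglech had no count. The CD8 T and NK cell list summed to 7.43 to 11.3 and 14.4 to 20.4 CPM. Eomes and Cd8a were higher, from 2.88 to 9.30 and from 1.82 to 3.40 CPM on average. Cd8b1, at 4.22 and 4.65 CPM, was not called. Of those too low to be tested, Klrb1c had 3, 2 and 3 counts without the drug and 0, 1 and 1 with it. Klra8 had at most 1 count in a library, and Ncr1 had none. The part of such cells in the rise of the cluster was not tested.

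The rise of the cluster was also set against its surroundings on the chromosome. Within 3 Mb of the start of Trim30a, 40 genes outside the family were tested, of which 14 were higher and 6 lower, beside 22.2% and 22.4% of all tested genes, with a median log2 fold change of 0.31. Inside the cluster's 289 kb 2 such genes were tested and both were higher. Gm16464, a processed pseudogene within the bounds of Trim30d on the same strand, was at 3.30. Gm15133, an antisense RNA whose span overlaps one end of Trim12a, was at 3.05. The exons of Trim30d and of Trim12a overlap those of no other gene. Gm16464 and Gm15133 had 25 counts or fewer in every library, with 2, 1 and 3 and 0, 4 and 2 counts without the drug. Both passed the filter on low counts through their idelalisib libraries alone. Their being tested thus depends on their being high there, and that both were higher is not a separate result. The nearest tested genes on either side of the cluster, Dnajc19-ps and Fam160a2, were at 0.70, not called, and at -0.27, lower, and Trim3 on that side was not called either, at -0.23. Farther out, 8 tested genes in a row were called higher, first Mrpl17 at 1345.9 kb from Trim30a with 0.32 (adjusted p = 0.0489 by edgeR). Then came 7 genes at 1366 to 2139 kb, from Gm4759 at 1.22 to Gm4070 at 2.66 on the log2 scale. Among them was Gvin1, a large interferon-inducible GTPase gene, at 2.10. In this run 9130208D14Rik, Gm8989, Gm4759, Gm8995 and Gm1966 are annotated as unprocessed pseudogenes. 9130208D14Rik and Gm8989 averaged 0.302 and 0.377 CPM in control libraries, so their being tested depends on the idelalisib libraries as well. Sharing of reads between the genes of this run was not examined, so they may not be separate observations.

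**Figure D5:**
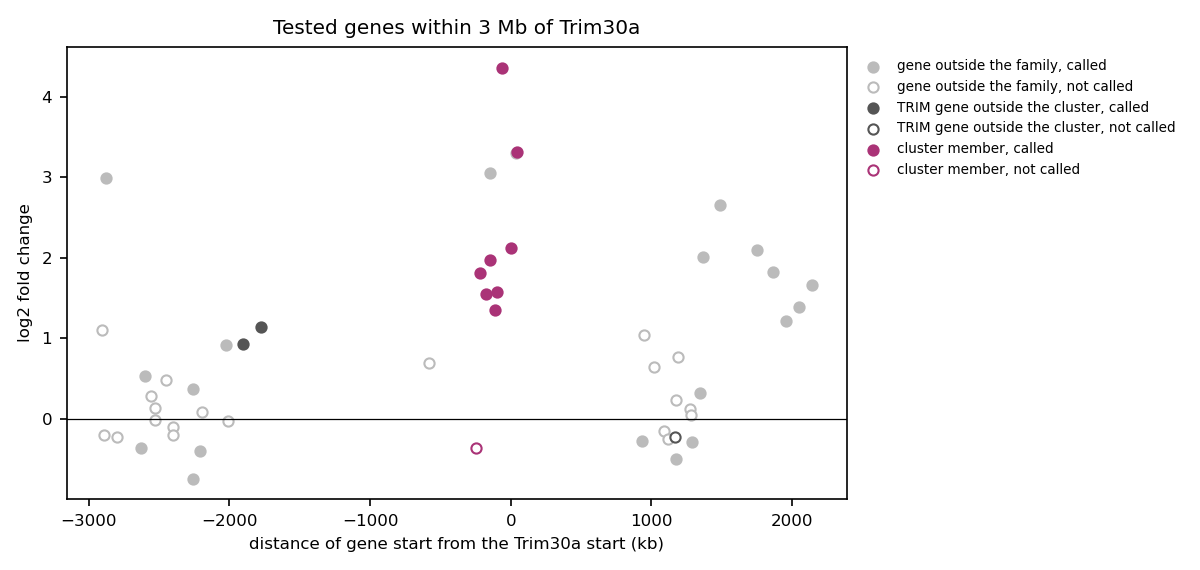
Log2 fold change of every tested gene within 3 Mb of Trim30a against the distance of its start from the Trim30a start in kb; filled points passed an adjusted p of 0.05. Cluster genes lie between -246 and 43 kb, where Trim6 is the lowest at -0.36, and the 7 genes from 1366 to 2139 kb are at 1.22 to 2.66.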

How the data were processed

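Poly(A) RNA libraries from 3 control and 3 idelalisib cultures were compared, with groups and replicate numbers taken from the sample titles. The authors deposited unnormalised read counts for each gene, together with the gene lengths used here. Tools named in the submitters' processing notes are fastp, HISAT2 2.0.5 and featureCounts 1.5.0-p3, with build mm10. Strand setting, handling of multi-mapped reads and annotation release: not given in the sources used here. All 68 members occur in GENCODE M21, 66 with the same coordinates.

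Genes were kept with filterByExpr (minimum count 10, minimum total 15), scaled by TMM, and fitted in edgeR 4.0.16 under R 4.3.3 (quasi-likelihood F test, robust dispersions, group alone), with Benjamini-Hochberg adjustment over 14530 genes. The common biological coefficient of variation was 0.109. The SE is the absolute log2 fold change over the square root of F. CPM use the TMM-scaled library sizes, and RPKM divide CPM by gene length in kb. Counting intervals are exact at 95% and cover counting error only. Shared 50-base words and exon overlaps come from GENCODE M21 transcripts; start windows were aligned with Biopython 1.88. The scripts were tested on simulated data.

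The members and gene lists were chosen with earlier results of these data known. Values by library are given for tested cluster members and for called members outside it with an absolute log2 fold change of at least 0.5; of each other list, the 3 called genes with the largest change at 1 CPM or more are named, with Trim28, Trim25, Trim21, Pml, Setdb1 and Rnf135 always. Trim34b, Trim27, Trim23, Trim41, Trim24, Trim2, Trim36, Ddx58, Cd4, the Tab genes and the neighbours of the cluster were chosen after their values were seen. The same holds for the start motifs and the 3 Mb window. Chi-square per degree of freedom between libraries of a group was 4.99 to 20.3, so no library was a duplicate. Alternatives were DESeq2 1.42.0, limma-voom (limma 3.58.1), scaling by RLE, by the upper quartile or by library size alone, other count filters, protein-coding genes alone, a replicate block and leaving out each library.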

Additional observations from a re-analysis of the deposited data

How the results depend on the processing

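Of 24 TRIM genes followed through 15 alternatives, 19 kept their direction and their side of the threshold in all 15, and none changed direction in any. The other 5 were Trim30b, Trim23, Trim24, Trim41 and Trim71, all of which lost their call in at least 1. The cluster count was 8 higher in every alternative but the fits without control replicate 2 or 3, where it was 7. The family count of 17 higher and 6 lower ranged over the 6 fits that left out 1 library from 15 to 18 higher and from 4 to 9 lower. All genes ranged over them from 2472 to 3599 higher and from 2617 to 3581 lower. Scaled by library size alone the family count was 21 higher and 4 lower, and all genes gave 4832 higher and 2219 lower. The replicate number did not pair the libraries: the correlation of deviations from the group means between libraries of the same number was 0.08, -0.13 and -0.10. With a replicate block 17 members were higher and 5 lower, 2910 and 3051 over all genes, and 8 cluster genes were higher. With only the filter that asked for 1 count, 57 members were tested, and again 17 were higher and 6 lower. Depth limits most the members with the fewest reads among those tested, Trim47, Trim30c and Trim30b.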
